A study of Rattus norvegicus with 16 samples.

Results

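The genes described here are 39 enzymes and carriers of fatty acid oxidation and ketone body formation, out of 17055 gene symbols counted in rat liver. They were chosen by name, for the step that each encoded protein serves, and the rule uses no measured value. Earlier results of these data were known, however, when the genes were chosen. All 39 symbols were in the files, and 37 had enough reads to be tested. The exceptions were Echs1, the short-chain enoyl-CoA hydratase of mitochondria, with 2 reads over all libraries, and Acot1, a cytosolic acyl-CoA thioesterase, with 9 reads.

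Liver RNA came from 48 male Sprague-Dawley rats of 10 weeks. Each of the 16 libraries was made from the liver tissue of 3 pooled rats, and each of the 4 groups holds 4 libraries, so the SD of a group describes pools and not single animals. The study asked how an inflammatory insult alters liver metabolism under a volatile anesthetic and under an intravenous one. Livers were taken 8 h after the abdomen was opened. In Isoflurane-Sepsis (libraries 1 to 4) the rats breathed isoflurane and underwent cecal ligation and puncture, which lets gut bacteria leak into the abdomen. In Isoflurane-Control (libraries 5 to 8) the cecum was only lifted out and put back under the same anesthetic. Propofol-Sepsis (libraries 9 to 12) and Propofol-Control (libraries 13 to 16) underwent these same procedures under a propofol infusion that followed injected ketamine and xylazine. A comparison between the anesthetics is therefore also one between the ways of induction. Every rat, controls included, was anesthetized, given oxygen and had its abdomen opened.

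Fatty acids that enter a hepatocyte are bound by a carrier protein and joined to coenzyme A. The long chains then pass into mitochondria through the carnitine shuttle, whose first enzyme is held back by malonyl-CoA, the building block of fatty acid synthesis. Inside, the chain is shortened by repeated rounds of dehydrogenation, hydration, a second dehydrogenation and thiolysis, with auxiliary enzymes for unsaturated chains, while peroxisomes shorten very long and branched chains. In the fasting liver much of the acetyl-CoA leaves as ketone bodies, and the nuclear receptor PPAR-alpha is the best known activator of these genes.

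Depth was 14199400 to 49937200 reads on genes per library. Levels are read counts scaled to a common library size (CPM) after scaling by trimmed mean of M-values (TMM), and a gene was called at a Benjamini-Hochberg adjusted p below 0.05 over all genes tested with edgeR's quasi-likelihood test. Library 4 (Isoflurane-Sepsis) had the lowest level of its group for 23 of the 37 genes, and library 15 (Propofol-Control) the highest for 25. This was not counted over all genes, so it is not known whether it is particular to the pathway. In library 10 (Propofol-Sepsis), 8 brain markers summed to 351 CPM, where the median of its group was 19.5 CPM. They summed to 7.27 to 19.0 CPM in Propofol-Control and to 5.99 to 19.4 CPM in the isoflurane libraries. The 15 hepatocyte markers together took 167670 to 188554 CPM in Isoflurane-Sepsis against 186960 to 197743 in Isoflurane-Control. They took 142542 to 152608 in Propofol-Sepsis against 144349 to 156402 in Propofol-Control, and none was at 0. Of these 15, 4 were called lower and 1 higher under isoflurane, and 2 and 3 under propofol. Their log2 fold changes ran from -1.59 to 0.78 and from -0.91 to 1.31. The 14 neutrophil and monocyte markers summed to 198 to 518 CPM in Isoflurane-Sepsis against 68.1 to 74.7, and to 144 to 217 in Propofol-Sepsis against 67.6 to 97.4, with 10 and 7 of the 13 that were tested called higher. The 7 endothelial markers summed to 120 to 142 CPM in Isoflurane-Sepsis against 171 to 212, with 5 called lower, and to 166 to 174 in Propofol-Sepsis against 198 to 241, with 2 lower and 1 higher. The 10 Kupffer cell markers overlapped between sepsis and control in their sum under both anesthetics (414 to 649 CPM in all 16 libraries). Of these 10, 6 were called higher and 1 lower under isoflurane, and 2 and 1 under propofol. Of all genes tested, 25.7% were called higher and 24.4% lower under isoflurane, and 20.4% and 21.7% under propofol. The part of the cell type markers in the results was not tested. Fewer cells of a type and less RNA per cell cannot be told apart in these tissue samples.

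Promoter sequences of RefSeq genes on the rat assembly GRCr8 were matched by symbol for 35 of the 39 genes. The 250 bases before the annotated start are shown for Cpt1a and Crot, whose response to sepsis differed between the anesthetics, and for Fabp1 and Eci1, which hold a copy of the hexamer to which many nuclear receptors bind. Capitals mark AGGTCA or its reverse complement. All are read 5′ to 3′ on the + strand, at chr1:209995910-209996159 (Cpt1a), chr4:26052874-26053123 (Crot), chr4:104749090-104749339 (Fabp1) and chr10:13961000-13961249 (Eci1).
Cpt1a: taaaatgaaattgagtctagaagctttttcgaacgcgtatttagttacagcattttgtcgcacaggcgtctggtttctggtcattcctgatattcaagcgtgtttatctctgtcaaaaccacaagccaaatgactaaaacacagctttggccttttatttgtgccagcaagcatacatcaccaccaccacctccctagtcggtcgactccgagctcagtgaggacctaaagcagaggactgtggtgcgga
Crot: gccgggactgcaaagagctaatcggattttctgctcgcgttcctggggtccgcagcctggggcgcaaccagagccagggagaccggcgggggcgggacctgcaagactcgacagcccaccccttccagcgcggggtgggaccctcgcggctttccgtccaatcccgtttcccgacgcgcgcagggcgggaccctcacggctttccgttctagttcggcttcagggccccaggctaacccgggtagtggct
Fabp1: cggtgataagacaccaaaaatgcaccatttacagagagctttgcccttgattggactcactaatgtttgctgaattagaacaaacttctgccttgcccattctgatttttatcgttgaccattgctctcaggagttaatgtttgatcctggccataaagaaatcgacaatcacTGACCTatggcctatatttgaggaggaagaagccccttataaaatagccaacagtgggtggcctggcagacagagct
Eci1: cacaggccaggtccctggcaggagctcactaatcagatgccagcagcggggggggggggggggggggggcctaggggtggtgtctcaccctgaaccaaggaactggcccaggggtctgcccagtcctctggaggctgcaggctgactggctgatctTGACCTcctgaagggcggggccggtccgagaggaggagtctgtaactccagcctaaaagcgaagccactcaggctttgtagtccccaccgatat

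PPAR-alpha and related receptors bind repeats of this hexamer. Over the 300 bases from 250 before to 50 after the start, counted on both strands, AGGTCA was in 9 of the 35 promoters (Echs1, Acot8, Fabp1, Hadhb, Acad11, Eci1, Acadvl, Eci2 and Hsd17b4) and in 16.2% of all 33469 promoters. An exact copy of the direct repeat DR1, in which copies of that hexamer follow each other 1 base apart, was in 0 of 35 and in 0.0538% of all. Repeats with a changed base were not searched for, so these counts do not cover imperfect DR1 sites. The E-box CACGTG was in 0 of 35 and in 6.42% of all, and TTGCNNAA, the core of the C/EBP motif, in 4 of 35 (Acadsb, Fabp1, Acot1 and Acaa1a) and in 10.6% of all. The promoters had a median GC content of 59.2% in the 250 bases before the start, against 51.2% over all promoters.

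Sepsis went with lower RNA of most of the pathway under both anesthetics. Under isoflurane, 30 of the 37 genes tested fell and 1 rose, where 24.4% of the 10361 genes tested fell and 25.7% rose. The median log2 fold change of the 37 was -0.68, against 0.0061 over all genes tested. Under propofol 30 fell and 1 rose as well, where 21.7% of 10348 genes fell and 20.4% rose, with a median of -0.49 against -0.0016 over all genes. Scaled by library totals instead of TMM, 31 fell and 1 rose under propofol, where 26.1% of all genes fell and 16.2% rose. The same 28 genes fell under both anesthetics, and Acsl4 rose under both. All 4 sepsis libraries lay below all 4 controls for 29 genes under isoflurane and for 31 under propofol, which held for 24.4% and 21.1% of all genes. They lay above for Acsl4 alone, against 24.3% and 21.2% of all genes. Reads on the 39 genes made up 0.321% to 0.374% of a library in Isoflurane-Sepsis and 0.571% to 0.605% in Isoflurane-Control. They made up 0.466% to 0.531% in Propofol-Sepsis and 0.708% to 0.888% in Propofol-Control.

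**Figure D1:**
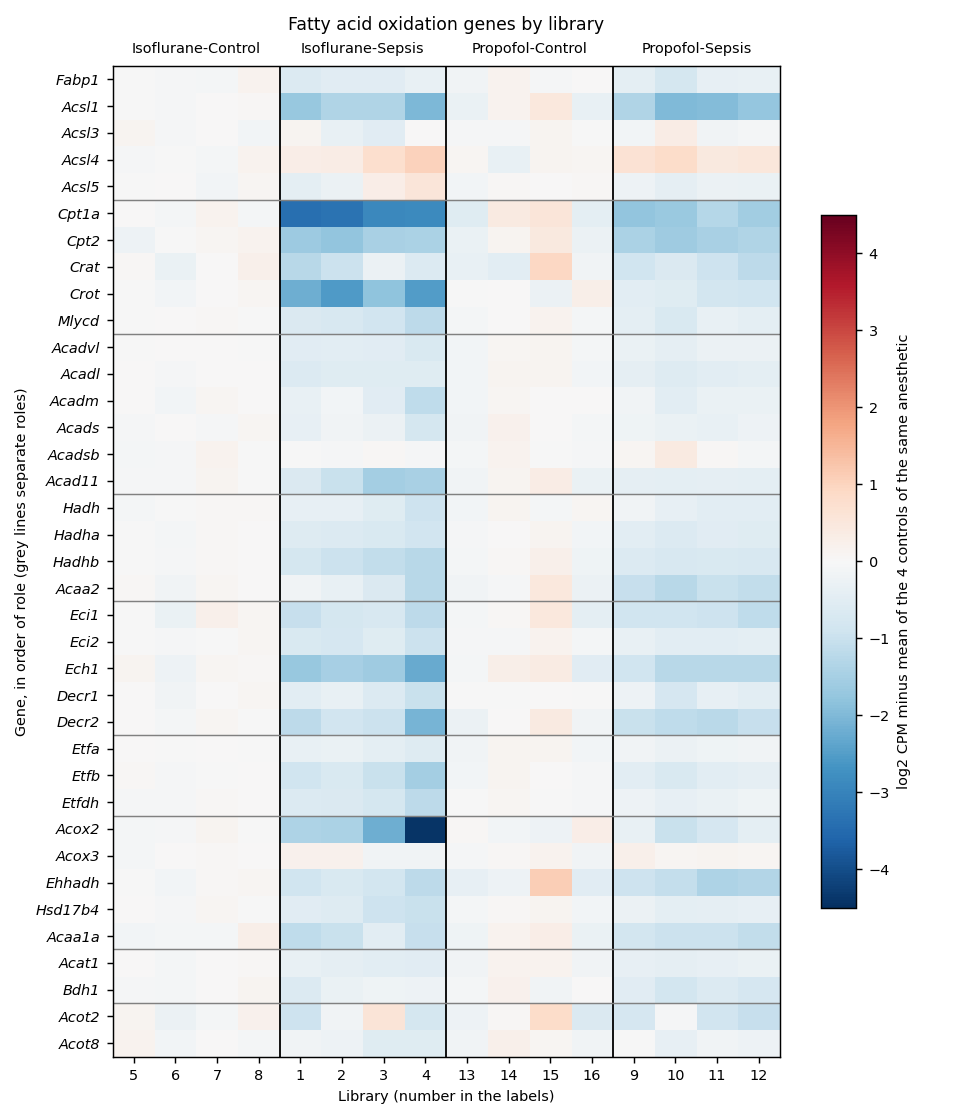
Colour gives the log2 CPM of each of the 37 genes tested (rows, in order of role) in each of the 16 libraries (columns, by number), minus the mean of the 4 controls under the same anesthetic. The sepsis columns are blue for most rows, and Acsl4 is red in both sepsis groups. Library 4 is the lowest of its group for 23 of the 37 genes, a count not made over all genes.

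The genes of binding and activation split, with Acsl1 falling by a large factor while Acsl4 rose. Fabp1 encodes the liver fatty acid-binding protein. It stood at 561, 611, 607 and 693 CPM in Isoflurane-Sepsis and at 862, 831, 814 and 977 CPM in Isoflurane-Control. It stood at 706, 546, 735 and 745 CPM in Propofol-Sepsis and at 852, 1061, 926 and 967 CPM in Propofol-Control. The groups did not overlap under either anesthetic, and the log2 fold change was -0.49 under both (SE 0.091, adjusted p = 0.00241 for isoflurane, SE 0.108, adjusted p = 0.00568 for propofol).

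Acsl1 is the main long-chain acyl-CoA synthetase of hepatocytes. Its levels were 91.2, 117, 117 and 74.1 CPM in Isoflurane-Sepsis against 293, 289, 302 and 312 CPM in Isoflurane-Control, a 2.99-fold fall (adjusted p = 0.000111). They were 229, 148, 149 and 172 CPM in Propofol-Sepsis against 475, 637, 803 and 458 CPM in Propofol-Control, a 3.42-fold fall (adjusted p = 0.000184). Every sepsis library lay below the lowest control by a wide gap.

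Acsl4, a synthetase that prefers arachidonic acid, was the only one of the 37 genes called higher. It rose from 203, 209, 197 and 236 CPM in Isoflurane-Control to 259, 268, 358 and 430 CPM in Isoflurane-Sepsis, a log2 fold change of 0.64 (SE 0.164, adjusted p = 0.011). It rose from 276, 205, 285 and 278 CPM in Propofol-Control to 405, 458, 352 and 367 CPM in Propofol-Sepsis, a log2 fold change of 0.59 (SE 0.117, adjusted p = 0.00299). The sepsis libraries lay above the controls in both cases, and the part of the neutrophil and monocyte markers in this rise was not tested. Acsl5 fell under propofol only (log2 fold change -0.30, adjusted p = 0.00495) and overlapped its controls under isoflurane (0.10, adjusted p = 0.694), and the difference between these responses was not called (0.39, adjusted p = 0.291). Acsl3 was called in neither (-0.15 and -0.01).

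The genes of the carnitine shuttle and its malonyl-CoA control, here the carnitine group, held the 2 deepest falls under isoflurane. All 5 fell under both anesthetics. Besides Cpt1a and Cpt2 the group counts Crot, which serves peroxisomes, Crat and Mlycd. Cpt1a, the malonyl-CoA-sensitive gate of the shuttle, stood at 38.9, 40.8, 54.1 and 56.1 CPM in Isoflurane-Sepsis and at 409, 387, 460 and 380 CPM in Isoflurane-Control. That is an 8.59-fold fall (log2 -3.10, SE 0.149, adjusted p = 1.01e-05), the deepest among the 37 genes. In Propofol-Sepsis the gene stood at 118, 126, 166 and 138 CPM and in Propofol-Control at 278, 538, 597 and 299 CPM, a 3.14-fold fall (log2 -1.65, SE 0.247, adjusted p = 0.000694). The isoflurane controls lay close together, whereas the propofol controls split into a higher and a lower pair, and even the lower pair lay above every sepsis library.

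Cpt2, which hands the chain back to coenzyme A on the inner membrane, fell by nearly the same factor under both. Its levels were 14.5, 13.1, 16.2 and 16.6 CPM in Isoflurane-Sepsis against 38.0, 43.7, 47.8 and 49.2 CPM in Isoflurane-Control (2.96-fold lower, adjusted p = 4.01e-05). They were 53.0, 47.4, 52.6 and 55.6 CPM in Propofol-Sepsis against 116, 158, 192 and 119 CPM in Propofol-Control (2.82-fold lower, adjusted p = 0.000111). The propofol sepsis libraries thus stood in the range of the isoflurane controls or just above it.

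Crot, the carnitine octanoyltransferase that exports shortened chains from peroxisomes, stood at 6.14, 4.83, 7.98 and 5.01 CPM in Isoflurane-Sepsis and at 28.1, 26, 28.9 and 30.3 CPM in Isoflurane-Control. It fell 4.69-fold (log2 -2.23, SE 0.158, adjusted p = 3.97e-05). In Propofol-Sepsis it stood at 16.9, 15.8, 13 and 12.5 CPM and in Propofol-Control at 23.1, 23.3, 19.2 and 28.2 CPM, a 1.62-fold fall (log2 -0.70, SE 0.136, adjusted p = 0.00286). The controls of both anesthetics covered a similar range, and the isoflurane sepsis libraries lay far below all the others. Mlycd, which breaks down malonyl-CoA, fell by 0.84 and 0.48 on the log2 scale under isoflurane and propofol, and Crat, the acetyltransferase for short chains, by 0.74 and 1.04. Crat was a low-count gene at 2.44 to 27.2 CPM, and its propofol value fell by 0.61 instead when library 15 was left out.

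**Figure D2:**
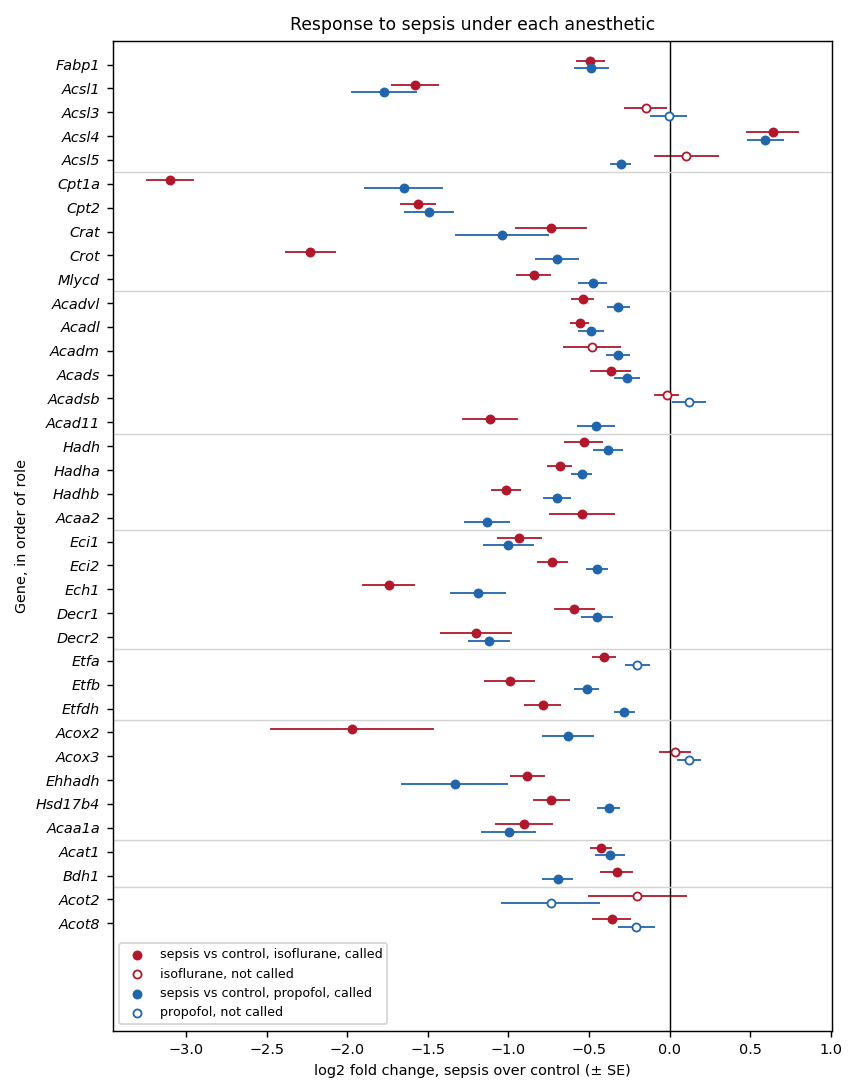
Each point is the log2 fold change of sepsis over control (x axis) for 1 of the 37 genes (y axis, in order of role), in red for isoflurane and blue for propofol, with bars of 1 SE, and filled where the adjusted p is below 0.05. Most points lie left of 0, and Acsl4 lies to the right under both. Cpt1a (-3.10 and -1.65) and Crot (-2.23 and -0.70) are furthest apart among the called pairs of the carnitine group.

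Of the acyl-CoA dehydrogenases, which take the first electrons from the chain, 4 of 6 fell under isoflurane and 5 of 6 under propofol. Acadl, for long chains, had the smallest p of the family under both. It stood at 136, 143, 142 and 142 CPM in Isoflurane-Sepsis against 209, 202, 208 and 209 CPM in Isoflurane-Control (1.47-fold lower, adjusted p = 0.000202). It stood at 185, 165, 179 and 184 CPM in Propofol-Sepsis against 227, 267, 271 and 229 CPM in Propofol-Control (1.40-fold lower, adjusted p = 0.00103). Neither pair of groups overlapped, and in Isoflurane-Sepsis it had the narrowest spread of the 37 genes (coefficient of variation 2.12%).

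Acadvl, for very long chains, fell by 0.54 and 0.32 on the log2 scale, Acads, for short chains, by 0.37 and 0.27, and Acad11, an enzyme of long and hydroxylated chains, by 1.11 and 0.46. Acadm, for medium chains, fell under propofol (-0.32, adjusted p = 0.00788) and missed the threshold under isoflurane (-0.48, adjusted p = 0.0522). Its isoflurane libraries were at 242, 277, 215 and 138 CPM, the last being library 4, and without that library the value was -0.31 (adjusted p = 0.0212, with a range of 0.0112 to 0.116 over the alternatives). Acadsb, which serves isoleucine breakdown rather than straight chains, was called in neither (-0.02 and 0.12).

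The later mitochondrial steps all fell in the 4 genes that could be tested. Hadha and Hadhb encode the subunits of the trifunctional protein, which carries out the last reactions of each round on long chains. Hadhb stood at 95.7, 85.4, 78.4 and 70.9 CPM in Isoflurane-Sepsis against 164, 161, 175 and 170 CPM in Isoflurane-Control (log2 -1.02, SE 0.093, adjusted p = 0.000105). It stood at 150, 139, 141 and 139 CPM in Propofol-Sepsis against 214, 237, 268 and 202 CPM in Propofol-Control (log2 -0.70, SE 0.088, adjusted p = 0.000293).

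Hadha had smaller fold changes than its partner. It stood at 153, 150, 141 and 127 CPM in Isoflurane-Sepsis against 227, 218, 239 and 233 CPM in Isoflurane-Control (log2 -0.68, adjusted p = 0.000253). It stood at 222, 203, 217 and 211 CPM in Propofol-Sepsis against 300, 315, 337 and 287 CPM in Propofol-Control (log2 -0.54, adjusted p = 0.000237). The ratio of Hadhb to Hadha reads, which does not depend on scaling between libraries, was 0.578 ± 0.0325 (SD, n = 4) in Isoflurane-Sepsis and 0.730 ± 0.00533 in Isoflurane-Control, without overlap. It was 0.668 ± 0.0156 in Propofol-Sepsis and 0.741 ± 0.0429 in Propofol-Control, again without overlap. This ratio was chosen after the values were seen. Hadh, the dehydrogenase for shorter chains, fell by 0.53 and 0.38 on the log2 scale.

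Acaa2, the mitochondrial thiolase, fell by 1.14 under propofol (adjusted p = 0.000289) and by 0.54 under isoflurane, close to the threshold (adjusted p = 0.0492, with a range of 0.0168 to 0.110 over the alternatives). In Isoflurane-Sepsis it stood at 217, 192, 152 and 101 CPM against 250, 215, 258 and 242 CPM in Isoflurane-Control, with library 1 inside the control range. In Propofol-Sepsis it stood at 268, 233, 277 and 254 CPM against 502, 535, 762 and 460 CPM. The propofol groups lay well apart, and the propofol sepsis libraries covered about the range of the isoflurane controls.

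All 5 auxiliary enzymes for unsaturated chains fell under both anesthetics. Ech1, the dienoyl-CoA isomerase, stood at 20.5, 24, 22.3 and 14 CPM in Isoflurane-Sepsis against 73.7, 57.0, 71.3 and 69.5 CPM in Isoflurane-Control (3.35-fold lower, adjusted p = 0.000111). It stood at 90.6, 71.4, 71.7 and 71.8 CPM in Propofol-Sepsis against 157, 200, 217 and 119 CPM in Propofol-Control (2.28-fold lower, adjusted p = 0.000589). As with Cpt2, the propofol sepsis libraries lay in the upper part of the range of the isoflurane controls or above it.

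Decr2, the 2,4-dienoyl-CoA reductase of peroxisomes, stood at 20.3, 25.5, 23.4 and 10.8 CPM in Isoflurane-Sepsis against 47.0, 43.2, 48.6 and 45.5 CPM in Isoflurane-Control (log2 -1.20, SE 0.223, adjusted p = 0.00244). It stood at 29.7, 26.9, 25.6 and 29.0 CPM in Propofol-Sepsis against 50.1, 59.8, 78.2 and 53.3 CPM in Propofol-Control (log2 -1.12, SE 0.13, adjusted p = 0.000197). The mitochondrial reductase Decr1 fell by 0.59 and 0.45 on the log2 scale, about as much as Acadl. The enoyl-CoA isomerases Eci1 and Eci2 fell by 0.93 and 0.73 under isoflurane and by 1.00 and 0.45 under propofol.

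The electron transfer flavoprotein, which passes electrons from the dehydrogenases to the respiratory chain, fell in all 3 genes under isoflurane and in 2 of 3 genes under propofol. Etfdh, the oxidoreductase in the inner membrane, stood at 121, 120, 109 and 83.4 CPM in Isoflurane-Sepsis against 181, 181, 195 and 191 CPM in Isoflurane-Control (log2 -0.79, SE 0.116, adjusted p = 0.000811). It stood at 148, 135, 141 and 154 CPM in Propofol-Sepsis against 171, 187, 171 and 170 CPM in Propofol-Control (log2 -0.28, SE 0.065, adjusted p = 0.00704). Etfb, the smaller soluble subunit, stood at 62.6, 72.4, 57.3 and 39.8 CPM in Isoflurane-Sepsis against 120, 111, 114 and 118 CPM in Isoflurane-Control (log2 -0.99, adjusted p = 0.00112).

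Under propofol Etfb stood at 78.6, 67.9, 77.4 and 81.0 CPM with sepsis against 100, 118, 110 and 105 CPM without (log2 -0.51, adjusted p = 0.000664). Its partner Etfa fell by 0.41 under isoflurane (adjusted p = 0.00232) and missed the threshold under propofol (-0.20, adjusted p = 0.0666). The ratio of Etfb to Etfa reads was 0.385 ± 0.0642 in Isoflurane-Sepsis against 0.583 ± 0.0196 in Isoflurane-Control, and 0.517 ± 0.0247 in Propofol-Sepsis against 0.645 ± 0.0363 in Propofol-Control, without overlap within either anesthetic. This ratio, too, was chosen after the values were seen. As for the trifunctional protein, the fold changes of the subunits differed, and this difference was not tested.

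In the peroxisomal pathway 4 of 5 genes fell under each anesthetic. Ehhadh, the L-bifunctional enzyme, stood at 28.7, 33.1, 29.5 and 23.2 CPM in Isoflurane-Sepsis against 52.0, 48.6, 54.8 and 56.4 CPM in Isoflurane-Control (1.84-fold lower, adjusted p = 0.000371). It stood at 40.2, 36.4, 29.7 and 31.0 CPM in Propofol-Sepsis against 59.9, 66.1, 165 and 53.3 CPM in Propofol-Control (log2 -1.33, SE 0.331, adjusted p = 0.00982). The value of 165 CPM belonged to library 15, and the log2 fold change without it was -0.81.

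Acaa1a, annotated as a peroxisomal thiolase, was measured at few reads and has a near copy, Acaa1b, so its values are uncertain. It stood at 1.90, 2.13, 3.00 and 2.05 CPM in Isoflurane-Sepsis against 3.90, 4.01, 3.99 and 5.08 CPM in Isoflurane-Control (adjusted p = 0.00356). It stood at 2.54, 2.30, 2.30 and 2.07 CPM in Propofol-Sepsis against 3.93, 5.07, 5.57 and 3.70 CPM in Propofol-Control (adjusted p = 0.00144). Both pairs of groups were apart, by a log2 fold change of -0.90 and -0.999.

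Acox2, the oxidase for branched chains and bile acid intermediates, stood at 187, 180, 106 and 22.8 CPM in Isoflurane-Sepsis against 462, 471, 527 and 485 CPM in Isoflurane-Control, with library 4 again the lowest. Its log2 fold change was -1.97 (SE 0.509, adjusted p = 0.0114), and -1.62 without library 4. Under propofol it fell by 0.63 (adjusted p = 0.0115). Hsd17b4, the D-bifunctional enzyme, fell by 0.73 and 0.38, and Acox3, an oxidase of branched chains, was called in neither (0.03 and 0.12).

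Both ketone body enzymes fell under both anesthetics. Acat1, which condenses acetyl-CoA to acetoacetyl-CoA, stood at 115, 110, 103 and 101 CPM in Isoflurane-Sepsis against 146, 134, 146 and 149 CPM in Isoflurane-Control (log2 -0.43, SE 0.068, adjusted p = 0.0012). It stood at 114, 113, 116 and 122 CPM in Propofol-Sepsis against 132, 167, 168 and 132 CPM in Propofol-Control (log2 -0.37, SE 0.093, adjusted p = 0.0106). These were among the smaller falls of the pathway.

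Bdh1 turns acetoacetate into 3-hydroxybutyrate. It stood at 46.0, 56.3, 60.4 and 59.8 CPM in Isoflurane-Sepsis against 66.9, 65.8, 71.0 and 76.5 CPM in Isoflurane-Control (log2 -0.33, SE 0.103, adjusted p = 0.0257). It stood at 74.5, 59.9, 70.1 and 63.1 CPM in Propofol-Sepsis against 102, 123, 97.2 and 108 CPM in Propofol-Control (log2 -0.69, SE 0.097, adjusted p = 0.000481). Its value was deeper under propofol, but the difference of the responses was not called (0.35, adjusted p = 0.155).

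Of the thioesterases, which release free fatty acid from acyl-CoA, only Acot8 under isoflurane was called. Acot8 of peroxisomes stood at 9.53, 9.15, 7.20 and 7.19 CPM in Isoflurane-Sepsis against 11.9, 9.80, 10.8 and 10.04 CPM in Isoflurane-Control (log2 -0.36, SE 0.12, adjusted p = 0.0334). Under propofol it stood at 10.2, 7.96, 9.35 and 8.88 CPM against 9.33, 12.1, 10.9 and 9.41 CPM (log2 -0.21, SE 0.114, adjusted p = 0.172). Acot2 of mitochondria stood at 6.09, 10.2, 17.3 and 6.77 CPM against 12.6, 9.65, 11 and 13.4 CPM under isoflurane (-0.20, adjusted p = 0.616) and at 12.4, 20.1, 11.6 and 10.2 CPM against 18, 21.7, 36.8 and 13.3 CPM under propofol (-0.74, adjusted p = 0.0791). Acot2 overlapped its controls in both, and its reads may be shared with close relatives of the same family.

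**Figure D3:**
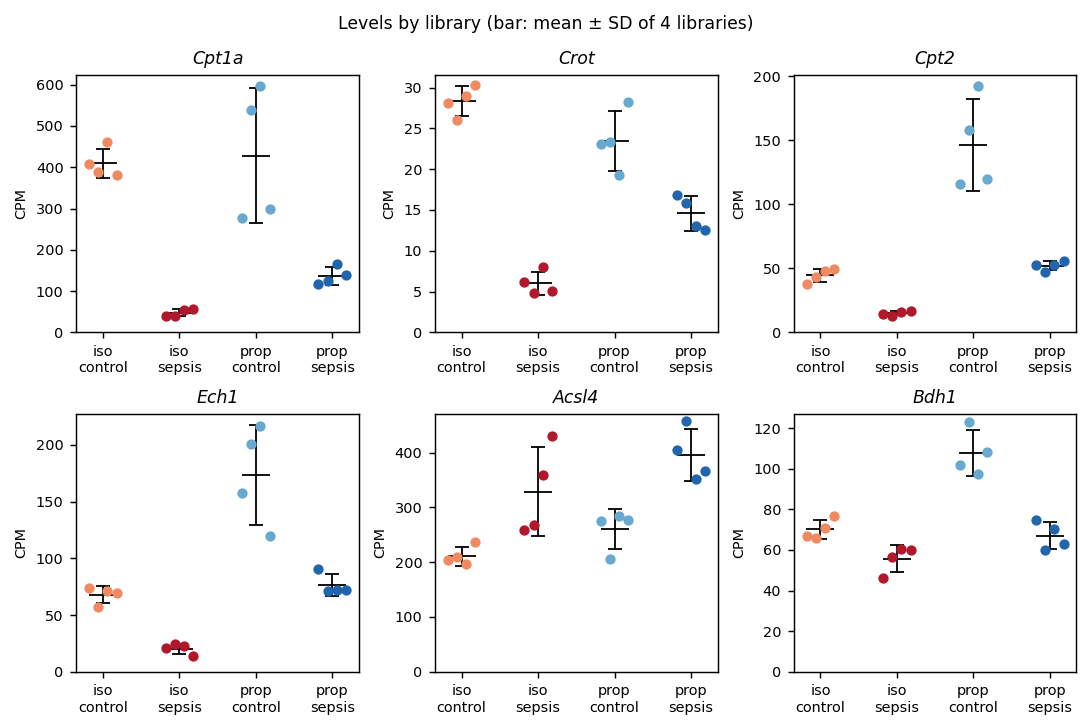
Level in CPM (y axis, from 0) of 6 genes in the 4 groups, with 1 point per library and bars for the mean ± SD of 4 libraries. Cpt1a and Crot fall further under isoflurane, Cpt2 and Ech1 start higher in Propofol-Control so that Propofol-Sepsis is near Isoflurane-Control, Acsl4 rises with sepsis, and Bdh1 falls from a mean of 70.1 to 55.6 CPM under isoflurane and from 108 to 66.9 CPM under propofol.

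Whether sepsis acted differently under the 2 anesthetics was tested with an interaction term over all 16 libraries, as the response under isoflurane minus that under propofol. Of the 37 genes 2 were called, both lower, where 1.06% of the 10621 genes tested were lower and 1.66% higher. They were Crot, at -1.54 (SE 0.211, adjusted p = 0.00545), and Cpt1a, at -1.46 (SE 0.304, adjusted p = 0.0268). Both are of the carnitine group, but Crot serves peroxisomes and Cpt1a the shuttle into mitochondria. Crot kept its call in every alternative, whereas Cpt1a lost it without library 6, 7, 8 or 12 (adjusted p over all alternatives 0.000542 to 0.0601). Within a library, the ratio of Cpt1a to Cpt2 reads was 3.13 ± 0.317 in Isoflurane-Sepsis and 9.25 ± 1.27 in Isoflurane-Control, but 2.63 ± 0.395 in Propofol-Sepsis and 2.85 ± 0.482 in Propofol-Control. The isoflurane groups were far apart in this ratio, chosen after the values were seen, and the propofol groups overlapped.

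The next in order was Etfdh, at -0.52 (SE 0.134, adjusted p = 0.0518), which other alternatives called (0.012 to 0.105 over all). Acad11 (-0.66, adjusted p = 0.110), Acox2 (-1.35, adjusted p = 0.168), Hadhb (-0.33, adjusted p = 0.162), Hsd17b4 (-0.36, adjusted p = 0.143) and Mlycd (-0.38, adjusted p = 0.138) leaned the same way without being called. Over the 37 genes 27 values were below 0, as were 51.9% of all genes, and 14 had an unadjusted p below 0.05, as did 23.1% of all genes, and the median was -0.15 against -0.02 over all genes. The 10 values above 0 were not called either. They reached 0.59 among the later mitochondrial steps, 0.52 among the thioesterases and 0.44 among the peroxisomal genes. The number of lower calls was 7 without library 1, 4 without library 4, and 1 without library 6, 7, 8 or 12, and without library 1 Bdh1 was called higher. The share of all genes moved with these counts, to 7.004% lower and 8.08% higher without library 1, 1.31% and 2.19% without library 4, and at most 0.318% and 0.392% without library 6, 7, 8 or 12.

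The sham-operated controls already differed in this pathway. In Isoflurane-Control relative to Propofol-Control, 14 of the 37 genes were lower and 2 higher, where 13.3% of the 10621 genes tested were lower and 13% higher, with a median of -0.13 against -0.0021 over all genes. This comparison shares its libraries with those above. The names of the deposited counts also carry a different prefix for each anesthetic, and the labels do not say what it stands for. Whatever it marks cannot be told apart from the anesthetic here. With library totals in place of TMM the median of all genes moved by -0.14, 26.5% of all genes were lower and 6.48% higher, and 19 of the 37 genes were lower and 1 higher.

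Most of the lower genes lay in the carnitine group, the later mitochondrial steps and the auxiliary enzymes, and 4 outside them (Acsl1, Acadl, Bdh1 and Acot2). Cpt2 was lower by 1.71 on the log2 scale (44.7 ± 5.00 against 146 ± 36.1 CPM, adjusted p = 4e-06), Eci1 by 1.64 (36.9 ± 5.46 against 115 ± 29.6 CPM, adjusted p = 1.3e-05) and Crat by 1.38 (0.95 without library 15). Ech1 was lower by 1.35, Acaa2 by 1.23 and Acsl1 by 0.99, and the libraries did not overlap for any of these. Acot2 (-0.94), Bdh1 (-0.62), Eci2 (-0.53), Hadhb (-0.46), Hadha (-0.44), Decr1 (-0.37), Mlycd (-0.32) and Acadl (-0.26) were lower as well. Acadsb, at 0.60, and Etfa, at 0.23, were higher. The calls of Acot2, Decr1, Mlycd and Etfa were lost in 12, 8, 6 and 8 of 24 alternatives. Those of Acot2, Decr1 and Mlycd, for instance, were lost without library 5, 6, 7, 14 or 15 (highest adjusted p over all alternatives 0.194, 0.0929 and 0.099).

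Cpt1a, by contrast, stood at 409 ± 36 CPM in Isoflurane-Control and 428 ± 163 CPM in Propofol-Control (-0.06, SE 0.212, adjusted p = 0.852). Levels of the 37 genes also varied more among the propofol controls, with a median coefficient of variation of 10.7% (highest for Ehhadh, 61.3%) against 5.83% among the isoflurane controls. The sepsis groups had medians of 17.1% under isoflurane and 8.13% under propofol.

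**Figure D4:**
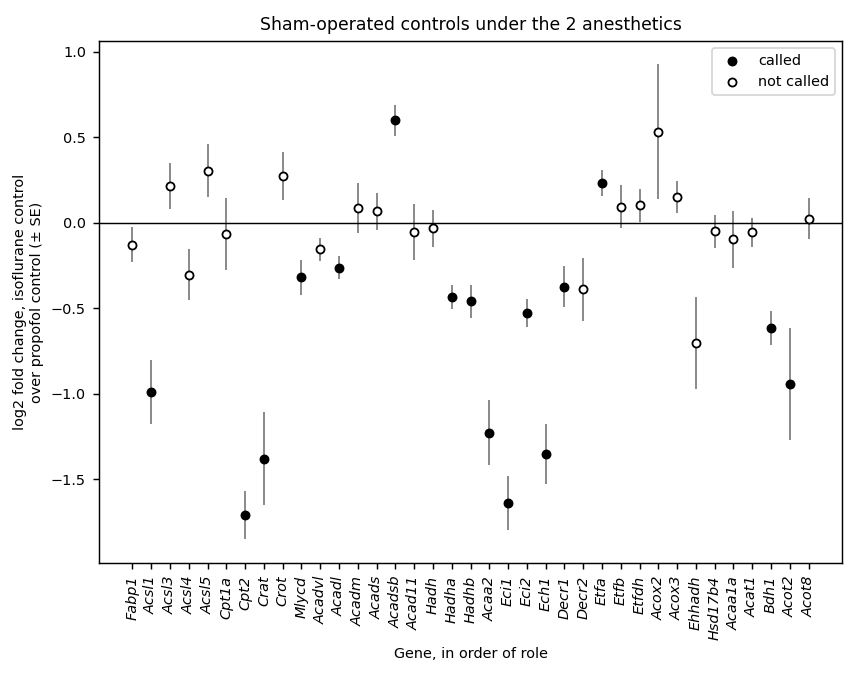
Each point is the log2 fold change of Isoflurane-Control over Propofol-Control (y axis) for 1 of the 37 genes (x axis, in order of role), with bars of 1 SE, filled where the adjusted p is below 0.05. Cpt2 (-1.71) and Eci1 (-1.64) lie lowest, Cpt1a is near 0, and Acadsb (0.60) is highest.

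Genes around the pathway were followed in 4 lists, none of which shares a gene with the 39. Among known PPAR-alpha targets, 9 of 21 fell and 1 rose under isoflurane, where 24.4% and 25.7% of all genes did. Under propofol 9 fell and 0 rose by edgeR, where 21.7% and 20.4% of all genes did, and 11 had an unadjusted p below 0.05, about the share over all genes (51.3%). Slc25a20, the translocase that joins Cpt1a and Cpt2 in the shuttle and was named for its role after its values were seen, fell from 110 ± 5.03 to 46.1 ± 9.99 CPM under isoflurane (log2 -1.25, adjusted p = 0.000263) and from 141 ± 17.7 to 89.5 ± 7.68 CPM under propofol (-0.67, adjusted p = 0.000615). Acot4 (-2.43, adjusted p = 0.000109) and Vnn1, a pantetheinase (-1.23, adjusted p = 0.00015), had the smallest adjusted p among the falls under isoflurane, and G0s2, an inhibitor of triglyceride lipolysis (-3.66, adjusted p = 2.41e-05), and Acot12 (-2.44, adjusted p = 0.000188) under propofol. Pdk4, a kinase that shuts off pyruvate oxidation, rose under isoflurane (3.60, SE 0.934, adjusted p = 0.0116), with a spread of 182 ± 225 against 15.2 ± 2.49 CPM. The value was 2.23 without library 3, and with limma-voom the call was lost (adjusted p = 0.0706).

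Of 21 regulators, 7 fell and 4 rose under isoflurane, near the shares over all genes (24.4% fell and 25.7% rose). Under propofol 10 fell and 1 rose, where 21.7% and 20.4% of all genes did. Ppara itself stood at 7.23, 21.8, 47.0 and 7.31 CPM in Isoflurane-Sepsis against 13.1, 14.9, 12.1 and 14.1 CPM in Isoflurane-Control (0.64, SE 0.546, adjusted p = 0.354). It stood at 11.2, 21.1, 12.3 and 8.73 CPM in Propofol-Sepsis against 14.7, 12.8, 24.9 and 15.9 CPM in Propofol-Control (-0.37, SE 0.279, adjusted p = 0.303). Under isoflurane the sepsis libraries spread on both sides of the controls, and under propofol 3 lay below the lowest control and 1 inside the control range.

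Its coactivator Ppargc1a stood at 3.54, 3.61, 8.55 and 11.7 CPM against 3.01, 4.5, 3.90 and 4.52 CPM under isoflurane (0.78, adjusted p = 0.117), and at 1.98, 5.28, 1.34 and 2.04 CPM against 1.74, 1.22, 0.809 and 0.96 CPM under propofol (1.18, adjusted p = 0.0529). The highest propofol value was that of library 10, which also held the brain markers, and their part in it was not tested. Between the controls Ppargc1a was higher under isoflurane (1.78, adjusted p = 0.0109). Nr1h4, the bile acid receptor FXR, fell under both (-1.81, adjusted p = 8.11e-05, and -2.11, adjusted p = 3.22e-05), as did Hnf4a, a nuclear receptor of hepatocyte identity (-1.06, adjusted p = 0.000155, and -0.73, adjusted p = 5.63e-05). Foxa2 (1.18) rose under isoflurane, and Prkaa2, a catalytic subunit of AMP-activated kinase, rose under propofol (0.57, adjusted p = 0.0026) with a called difference between the anesthetics (-0.65, adjusted p = 0.0424). That call was lost in 14 of 23 alternatives (adjusted p up to 0.0909), among them those without library 2, 3 or any of 6 to 16.

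Of the 17 genes tested for fatty acid entry, carnitine supply and ketone use, 11 fell and 2 rose under isoflurane (24.4% and 25.7% of all genes), and 10 fell and 2 rose under propofol (21.7% and 20.4% of all genes). Aldh9a1, an enzyme of carnitine synthesis, fell from 149 ± 11.4 to 54.4 ± 16.2 CPM (log2 -1.45) and from 158 ± 7.36 to 75.0 ± 18.7 CPM (-1.08). Tmlhe, which starts carnitine synthesis, fell under isoflurane (-0.72), and Slc22a5, the carnitine transporter of the cell membrane, under propofol (-1.004). The 2 that rose were the same under both, Slc27a4, a fatty acid transport protein (0.70 and 0.61), and Cpt1b, the muscle form of Cpt1a (0.66 and 0.78), which stayed at 3.99 to 10.8 CPM on average.

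Of 33 other genes of oxidation and the peroxisome, 25 fell and 0 rose under isoflurane by edgeR, where 24.4% and 25.7% of all genes did, with 25 at an unadjusted p below 0.05 (57% of all genes). Under propofol 21 fell and 1 rose, where 21.7% and 20.4% of all genes did. Abcd3, the peroxisomal importer of acyl-CoA (-1.16, adjusted p = 1.05e-05), and Lonp2, a peroxisomal protease (-1.05, adjusted p = 0.000129), had the smallest adjusted p under isoflurane. Catalase (Cat, -1.06, adjusted p = 5.63e-05) and Pex13, a part of the import machinery (-0.81, adjusted p = 0.000122), had it under propofol, where Phyh, which starts the breakdown of phytanic acid, rose (0.49, adjusted p = 0.00144). Phyh and Pex13 also differed between the anesthetics (-0.60, adjusted p = 0.0122, and 0.66, adjusted p = 0.0217), and so did G0s2 (3.28, adjusted p = 0.0298). Phyh kept this call in every alternative, and Pex13 lost it without library 6 or 12. G0s2 lost it in 10 of 23 (adjusted p up to 0.0685), with limma-voom and without library 3, 5, 6, 7, 8, 11, 12, 14 or 15, and its value was 2.53 without library 3.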

How the data were processed

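Liver poly(A) RNA of 16 pools was sequenced from directional single-end libraries. The authors deposited raw read counts per gene symbol for each library. The submitters' processing notes name STAR and rn5, with no role, and for the counting program, annotation and strand setting the sources used here give nothing, so reads of overlapping or antisense genes may be mixed. The 2 rows that name no gene (21.6% to 25.4% and 1.07% to 1.35% of reads) were left out.

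Groups came from the titles. Counts were tested with edgeR 4.0.16 (R 4.3.3) by quasi-likelihood after TMM scaling, with its filter on low counts (minimum 10) and Benjamini-Hochberg adjustment. Each anesthetic was fitted on its 8 libraries, and the interaction and the controls on all 16. CPM values are scaled over all 16 libraries and not divided by length, so levels are not compared between genes. On simulated counts, 87%, 92%, 81% and 87% of genes changed by 1 on the log2 scale were recovered (isoflurane, propofol, interaction, controls). False calls made up 2.60%, 6.80%, 4.74% and 3.125% of the calls in the same order. The changed genes were drawn from abundant ones, so the recovery does not apply to low-count genes. Far fewer genes were changed than were called with sepsis in the data. No 2 libraries of the same group were alike within sampling noise (chi-square per degree of freedom at least 3.35), and pairs across groups were not compared. Alternatives were other scalings, filters and tools (DESeq2 1.42.0, limma 3.58.1), thinned counts, and each library left out.

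The 39 genes, the lists and the markers were chosen with earlier results of these data known. Named in full were Cpt1a, Cpt2, Fabp1, the gene of each role with the smallest adjusted p under each anesthetic, and genes called higher or in the interaction. Of the lists, Ppara, Ppargc1a and the 2 genes with the smallest adjusted p per direction and comparison were named. Some genes that these rules name are not reported here. Sequences are RefSeq promoters (GRCr8), taken by symbol.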

Additional observations from a re-analysis of the deposited data

Results flagged for a closer look

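The response to sepsis differed between the anesthetics for Cpt1a, by -1.46 on the log2 scale, and for Crot, by -1.54, as the response under isoflurane minus that under propofol.

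In 11 of 148 sets of 4 libraries (37 genes in 4 groups), 1 library stood apart by Dixon's criterion at the 95% level, which chance alone gives in about 1 of 20 sets. In Propofol-Control library 15 was high for Ehhadh (165 CPM, the next at 66.1), Crat (27.2 CPM, the next at 12.8) and Eci2 (124 CPM, the next at 108), and library 14 was high for Etfdh (187 CPM, the next at 171) and low for Acsl4 (205 CPM, the next at 276). In Propofol-Sepsis library 9 was high for Ech1 (90.6 CPM, the next at 71.8) and library 10, the one with brain markers, for Acsl3 (17.2 CPM, the next at 12.8). In Isoflurane-Control library 8 was high for Eci2 (81.9 CPM, the next at 76.0) and Acaa1a (5.08 CPM, the next at 4.01), and library 6 was low for Acadl (202 CPM, the next at 208). In Isoflurane-Sepsis library 1 was low for Acadl (136 CPM, the next at 142).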

How the results depend on the processing

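Of the 37 genes tested, 27 under isoflurane and 30 under propofol kept direction and call in every alternative run. Without 1 library or more, Acaa2, Acads, Acot8, Bdh1 and Crat lost their call under isoflurane, where 25 (without library 8) to 30 genes were lower. Under propofol it was 29 to 31, and 26 with all 16 libraries in 1 fit, where Acadm, Acads, Acox2 and Acsl5 lost it, and Acads also without library 11 or 14. Lower calls in the interaction ranged from 1 to 7 with 1 library left out and higher calls from 0 to 1, and 3 were lower with DESeq2, which called 3.26% and 4.81% of all genes. In the controls, higher calls ranged from 1 to 3 with 1 library left out, and were 1 with library totals, 1 with no filter on low counts and 6 with the 8 control libraries alone, where 21.7% and 21.6% of all genes were called lower and higher. The median of the 37 genes was -0.27 with library totals there. Small values changed sign. Acox3 under isoflurane was -0.033 with library totals and -0.032 to 0.10 with 1 library left out, and Acsl3 under propofol 0.000881 with all 16 libraries in 1 fit and -0.13 to 0.045. Acsl5 (-0.079 to 0.25), Acadsb (-0.050 to 0.032), Ppara (-0.18 to 0.93) and Prkaa2 (-0.14 to 0.0011) changed sign under isoflurane with 1 library left out. Cpt1a between the controls was 0.015 with limma-voom and -0.22 to 0.14 with 1 library left out. Beyond fewer samples or genes, the cause was not tested. No paired analysis was possible because the groups share no replicate number. Pools of 3 rats, and 4 per group, limit what can be called, and Echs1 and Acot1 had too few reads for any statement.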

Other observations

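Further genes around the pathway, picked after their values were seen, fell with sepsis under both anesthetics. Fgf21, a hormone that the fasting liver releases, averaged 4.31 ± 3.07 CPM in Isoflurane-Sepsis against 27.7 ± 6.18 in Isoflurane-Control (log2 -2.66, adjusted p = 0.00103) and 6.32 ± 1.07 in Propofol-Sepsis against 67.7 ± 37.4 in Propofol-Control (-3.42, adjusted p = 0.000197). Rxra, the DNA-binding partner of PPAR-alpha, fell by 1.19 (adjusted p = 0.000409) and 0.81 (adjusted p = 9.42e-05), and Creb3l3, a fasting-responsive transcription factor of the liver, by 1.28 (adjusted p = 0.000603) and 1.00 (adjusted p = 6.44e-05). Sirt3, a deacetylase of mitochondrial enzymes, fell by 1.32 and 0.83 (adjusted p = 0.000739 and 0.000156). Acacb, which makes malonyl-CoA near the carnitine shuttle, fell from 6.48 ± 0.709 to 3.32 ± 1.09 CPM (adjusted p = 0.00515) and from 7.03 ± 1.6 to 3.98 ± 1.86 CPM (adjusted p = 0.0386). The Acacb call under propofol was lost without any 1 of libraries 10 to 15 (adjusted p up to 0.107, log2 -1.20 to -0.68 with 1 library left out). Without library 3, Fgf21 under isoflurane was -3.31.

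Between the controls, 12 of 21 known PPAR-alpha targets outside the 39 genes were lower under isoflurane and 0 were higher, with 15 at an unadjusted p below 0.05 by edgeR, where 13.3% of all genes tested were lower and 38.5% had such a p. Cyp4a1, a fatty acid omega-hydroxylase, stood at 105 ± 11.3 CPM in Isoflurane-Control against 276 ± 56.0 in Propofol-Control (-1.39, adjusted p = 2.33e-05). Angptl4, an inhibitor of lipoprotein lipase, was lower by 2.23 (adjusted p = 0.00103) and Fgf21 by 1.29 (adjusted p = 0.0212, not called without library 6, 8, 14 or 15). Among the other lists, Hnf4a (-0.51), Nr1h4 (-0.86), Slc22a5 (-0.84) and Hsdl2, a peroxisomal dehydrogenase (-0.95), were lower, and Prkaa2 (0.58), Cpt1b (0.78), Slc27a2, a synthetase for very long chains (0.43), Phyh (0.77) and Pcca, a subunit of propionyl-CoA carboxylase (0.39, not called with library totals or without library 5, 8, 13, 14 or 15), were higher. The anesthetic and whatever the name prefix of the deposited counts marks cannot be told apart in this comparison.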
